A study of Mus musculus with 8 samples.

Results

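The brown and beige fat regulators examined here are 10 genes of heat-producing fat: the transcriptional regulators Prdm16, Ebf2, Ppargc1a and Ppargc1b, the uncoupling protein genes Ucp1 and Ucp3, and the effector or marker genes Cidea, Elovl3, Dio2 and Kcnk3. They were taken by name from the array's annotation, and all 10 had at least 1 row annotated with that single symbol. The 10 genes hold 11 of 20748 such rows and stand among 19310 genes. Ppargc1a has 2 rows, the others 1 each, and the brightest row stands for each gene. Epididymal fat, a white depot next to the testis, gave the RNA for 4 arrays labelled as Rev-erb alpha KO and 4 labelled WT. All samples were from C57BL/6 males of 12 to 15 weeks on a standard diet and a cycle of 12 h light and 12 h dark, collected at Zeitgeber time 10 h, that is 10 h after lights on. The labels name no allele, no Cre driver and no treatment, and do not say whether each array is a separate mouse, so every p-value measures the spread between these samples, which may be technical.

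Brown and beige adipocytes burn fuel for heat. UCP1, in the inner mitochondrial membrane, lets protons return without making ATP. Noradrenaline released in the cold raises cAMP in these cells, which induces Ucp1, Dio2 and Ppargc1a. EBF2 and PRDM16 set the brown identity of the cell, while PGC-1 alpha and PGC-1 beta, encoded by Ppargc1a and Ppargc1b, drive mitochondrial and oxidative genes. Epididymal fat of mice is a visceral white depot that holds few beige cells unless it is strongly stimulated. Rev-erb alpha is a repressor of the nuclear receptor family and a part of the clock, and it is known to repress Ucp1 in mouse brown fat. The series title sets the comparison in the context of FGF21 signalling in fat.

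The deposited values are log2 expression values, and array medians lay between 5.896 and 5.951. The 9 white adipocyte markers analysed, among them Adipoq and Plin1, averaged 10.89 to 12.83 log2 and 7 epididymal markers 3.24 to 5.20. Of the white adipocyte markers 1 was called, beside 7.40% of all tested rows. It was Lep, the leptin gene (0.75 log2 higher in KO-labelled arrays, limma adjusted p = 0.0068), named after its value was seen. With KO-labelled arrays 1 and 2 only, Lep missed the threshold (0.0725). Of the 9 white adipocyte markers, 4 had log2 fold changes above 0 and 5 below, with a median of −0.04. The row of Nr1d1, the gene for Rev-erb alpha, averaged 9.14 ± 0.35 log2 in KO-labelled and 9.40 ± 0.33 in WT arrays (SD, n = 4 each; limma adjusted p = 0.479), and whether it lies in the deleted part is not known, so it checks nothing. Arntl, a clock gene repressed by Rev-erb alpha, was 3.61-fold higher in KO-labelled arrays (limma adjusted p = 3.20e-05). The main axis of variation held 43.2% of the variance and parted the groups. The next, with 14.7%, set KO-labelled arrays 1 and 2 (−12.8 and −10.7) apart from arrays 3 and 4 (11.4 and 5.91). Fits with 1 of these pairs as the KO-labelled group follow this split of the same data, so they are no independent check. With 2 arrays against 4, a lost call may reflect only the smaller number of arrays. Scan batches were not analysed here.

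Among the 10 regulators, Ebf2, Ppargc1a and Ppargc1b were lower and Kcnk3 was higher in the KO-labelled fat, while Ucp1, Cidea, Elovl3, Dio2, Ucp3 and Prdm16 did not pass the test. A row was called at a limma adjusted p under 0.05, with Benjamini-Hochberg adjustment over all 20748 rows. Of all tested rows, 7.40% were called, 3.59% lower and 3.81% higher (745 and 791 rows, or 574 and 955 after median centring of each array). The regulators' counts were 4 of 10 called, 3 of 10 lower and 1 of 10 higher. Their log2 fold changes, always KO-labelled minus WT, ran from −0.79 to 0.84 with a median of 0.02, beside −0.01 over all genes, with 5 of the 10 above 0 and 5 below. In 6 of the 10 genes the KO-labelled and WT arrays did not overlap, against 15.3% of all rows. In 3 of them the KO-labelled arrays were lower (8.16% of all rows) and in 3 higher (7.18% of all rows). In bulk tissue, fewer cells of a type and less RNA per cell cannot be told apart.

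**Figure D1:**
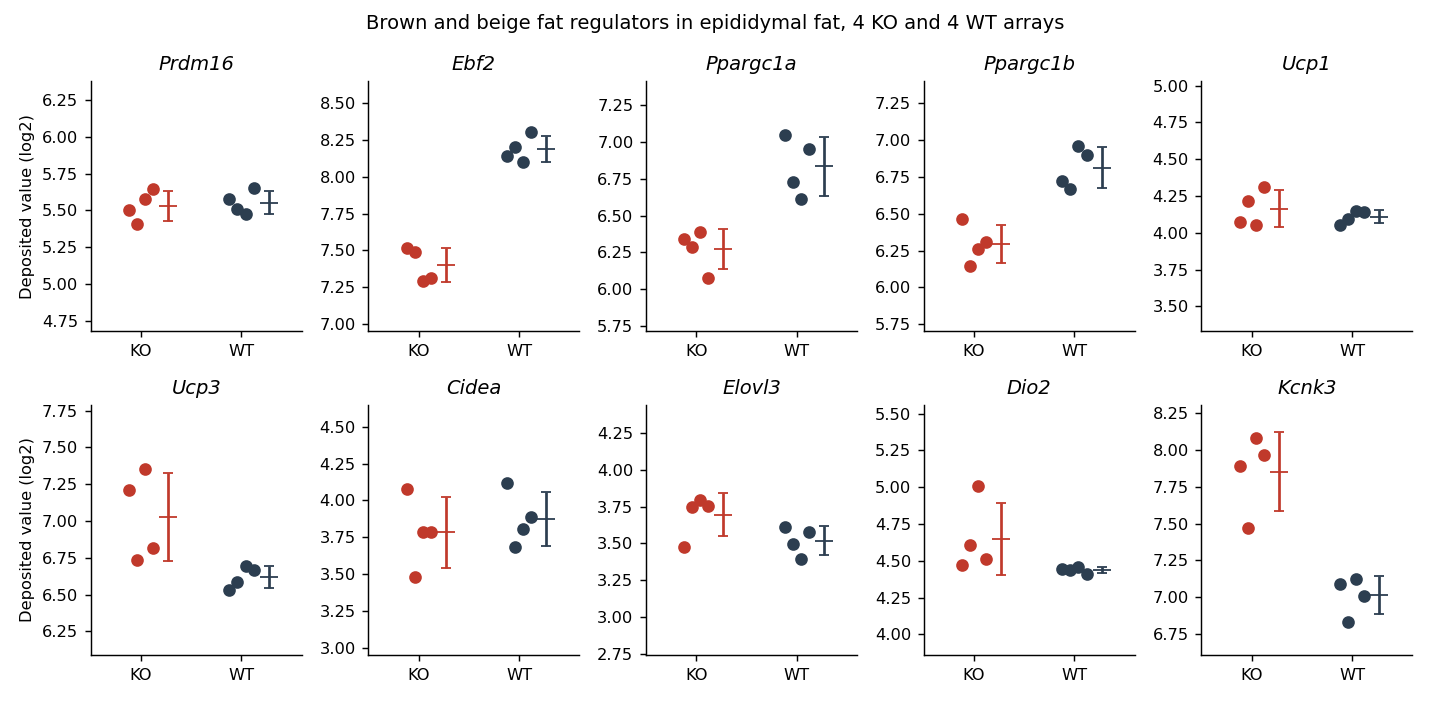
Deposited log2 values of the 10 genes, 1 dot per array, KO-labelled arrays left and WT arrays right in each panel, with mean and SD beside the dots; every panel spans the same log2 range around its own centre. Ebf2, Ppargc1a, Ppargc1b and Kcnk3 show groups well apart, with gaps of 0.59, 0.22, 0.21 and 0.35 log2, while the groups of Prdm16, Ucp1, Cidea and Elovl3 overlap.

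Ebf2, an early B-cell factor that opens brown-specific chromatin and recruits PPAR gamma to it, had the lowest p of the 10 genes. Its row (10416126) read 7.51, 7.49, 7.29 and 7.31 log2 in the KO-labelled arrays, against 8.14, 8.20, 8.10 and 8.31 in the WT arrays. All 4 KO-labelled arrays lay below all 4 WT arrays, and arrays 3 and 4 were the lowest. The means were 7.40 ± 0.12 in KO-labelled and 8.19 ± 0.09 in WT arrays (SD, n = 4 each), a log2 fold change of −0.79 (SE 0.071, 1.72-fold lower, limma adjusted p = 0.000203). The change lay between −0.82 and −0.75 with any single array left out and was called each time. Ebf2 was at −0.69 when the KO-labelled group held arrays 1 and 2, and at −0.88 when it held arrays 3 and 4.

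The close relatives of Ebf2 did not pass the test. Ebf1, which acts in white adipogenesis, averaged 10.44 ± 0.08 log2 in KO-labelled and 10.36 ± 0.12 in WT arrays (n = 4 each; limma adjusted p = 0.583), and Ebf3 averaged 7.52 ± 0.16 in KO-labelled and 7.41 ± 0.10 in WT arrays (limma adjusted p = 0.514). Both were chosen after their values were seen, and the sign for Ebf3 turned with KO-labelled arrays 1 and 2 only (−0.02). Whether Ebf2 differed more than these relatives was not tested. Because Ebf2 also marks precursor cells of fat in mice, adipose progenitor markers are given beside it. Of 7 such markers analysed, 1 was higher and 0 lower, beside 3.81% and 3.59% of all tested rows. Their mean log2 value per array was 8.44 to 8.55 in KO-labelled and 8.19 to 8.50 in WT arrays. The marker that passed was Pi16, named after its value was seen, with a log2 fold change of 0.40 (limma adjusted p = 0.0343). Its call was lost without KO-labelled array 3 or 4 or WT array 2, 3 or 4 (0.051 to 0.0997). Of the 7 markers, 4 had log2 fold changes above 0 and 3 below, from −0.14 to 0.40, with a median of 0.12.

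Ppargc1a encodes PGC-1 alpha, a coactivator that cold and cAMP induce and that drives mitochondrial biogenesis. Its brightest row (10529979) read 6.34, 6.28, 6.39 and 6.08 log2 in the KO-labelled arrays, against 7.05, 6.73, 6.61 and 6.95 in the WT arrays. The groups did not overlap, and KO-labelled array 4 was the lowest. The means were 6.27 ± 0.14 in KO-labelled and 6.83 ± 0.20 in WT arrays (SD, n = 4 each), a log2 fold change of −0.56 (SE 0.102, 1.48-fold lower, limma adjusted p = 0.00891). The second row (10529977) read 6.01, 6.17, 6.10 and 5.83 in the KO-labelled arrays, against 7.01, 6.68, 6.42 and 6.80 in the WT arrays, a log2 fold change of −0.70 (SE 0.118, limma adjusted p = 0.00617). Both rows put array 4 lowest among the KO-labelled arrays and array 3 lowest among the WT arrays. They share transcript accessions in the annotation, so they read the same gene and are no replicates.

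Ppargc1b encodes PGC-1 beta, the related coactivator that supports basal mitochondrial and lipid genes. Its row (10459193) read 6.46, 6.15, 6.26 and 6.31 log2 in the KO-labelled arrays, against 6.72, 6.67, 6.96 and 6.90 in the WT arrays. Again the groups did not overlap. The means were 6.29 ± 0.13 in KO-labelled and 6.81 ± 0.14 in WT arrays (n = 4 each), a log2 fold change of −0.52 (SE 0.085, 1.43-fold lower, limma adjusted p = 0.00563). Both coactivator genes were called with any single array left out. With KO-labelled arrays 1 and 2 only, against the 4 WT arrays, the changes were of similar size and missed the threshold (−0.52 for Ppargc1a, adjusted p = 0.0564; −0.51 for Ppargc1b, adjusted p = 0.0530).

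Prdm16, a zinc-finger protein that holds brown identity and silences white genes, did not differ detectably. Its row (10519028) read 5.50, 5.41, 5.58 and 5.64 log2 in the KO-labelled arrays, against 5.58, 5.51, 5.48 and 5.65 in the WT arrays. The groups overlapped throughout. The log2 fold change was −0.02 (95% interval −0.17 to 0.12, limma adjusted p = 0.890), an interval that leaves out changes of the size seen for Ebf2. Its sign turned in 3 of 17 alternative fits. Of the 4 transcriptional regulators, then, 3 fell and Prdm16 did not pass.

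**Figure D2:**
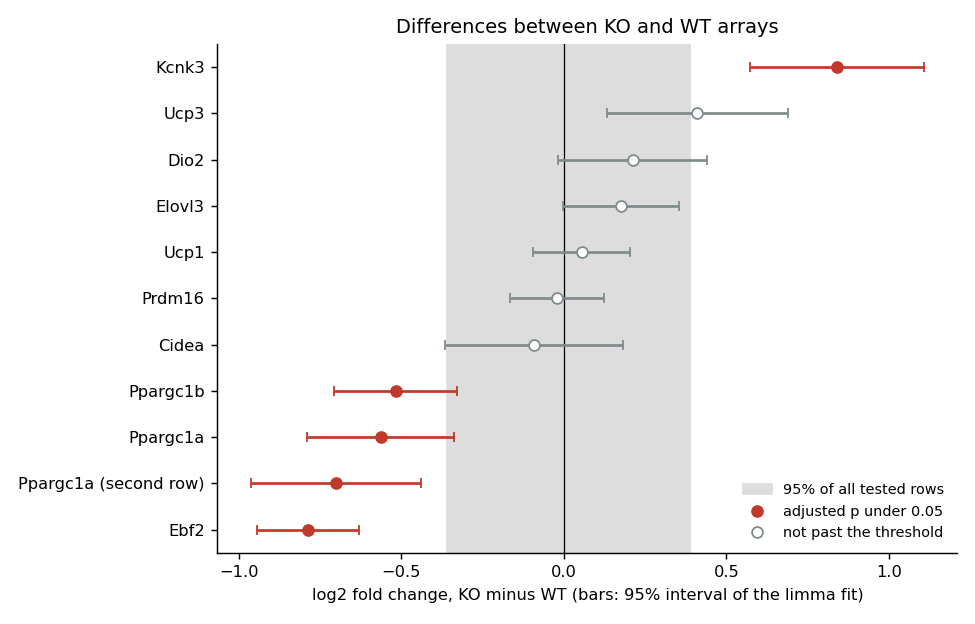
Log2 fold changes (KO-labelled minus WT) of the 11 rows with 95% intervals of the limma fit; filled dots passed an adjusted p of 0.05, and the grey band holds the middle 95% of all tested rows (−0.36 to 0.39). Kcnk3 lies above the band and Ebf2, Ppargc1a and Ppargc1b below it, while Ucp3 (0.41) lies just above its upper edge without passing.

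Ucp1, the uncoupling protein that defines thermogenic fat, did not differ detectably between the groups. Its row (10573152) read 4.08, 4.22, 4.05 and 4.31 log2 in the KO-labelled arrays, against 4.05, 4.10, 4.15 and 4.14 in the WT arrays. The groups overlapped, with KO-labelled arrays 2 and 4 the highest. Ucp1 was at a log2 fold change of 0.05 (SE 0.067; limma adjusted p = 0.707), and the 95% interval of the ratio of KO-labelled to WT signal was 0.937 to 1.15. The row belongs to the dimmest 33.3% of rows, as do those of Cidea, Elovl3 and Dio2. Row brightness depends on the probes as well as on the RNA, and without detection calls it is not known how much of such a signal is background, so a small change in a rare transcript might not be seen.

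Ucp3 encodes an uncoupling protein homologue of muscle and brown fat that is tied to fatty acid use and does not by itself produce adaptive heat. Its row (10555378) read 7.21, 6.73, 7.35 and 6.82 log2 in the KO-labelled arrays, against 6.53, 6.58, 6.69 and 6.67 in the WT arrays. KO-labelled arrays 1 and 3 were high, while arrays 2 and 4 lay just above the WT arrays, the gap between the groups being 0.04 log2. Ucp3 was at a log2 fold change of 0.41 (SE 0.126, 95% interval 0.13 to 0.69), and it did not pass (limma adjusted p = 0.0784). It passed when KO-labelled array 2 was left out (0.51, adjusted p = 0.0300) and in no other alternative fit (0.0573 to 0.183).

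Because Ucp3 and Ppargc1a are also muscle genes, skeletal muscle markers are set beside them. Of 13 muscle markers, 0 were called higher and 1 lower, beside 3.81% and 3.59% of all tested rows. The mean log2 value per array was 5.39 to 5.49 in KO-labelled and 5.32 to 5.48 in WT arrays. Their log2 fold changes ran from −0.43 to 0.77, with 6 above 0 and 7 below. At an unadjusted limma p under 0.05, 2 were higher and 1 lower, beside 10.2% and 11.6% of all genes. The called one was Actn3, a fast-fibre actinin (−0.43, limma adjusted p = 0.0332), named after its value was seen. Its call was lost without KO-labelled array 1, 3 or 4 or WT array 2, 3 or 4 (0.0740 to 0.0970). The part of muscle RNA in the Ucp3 and Ppargc1a values was not tested.

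The DNA before the start sites is shown for Ppargc1a, the called regulator for which a promoter is printed, and for Ucp1 and Ucp3, whose promoters hold the hexamer AGGTCA to which Rev-erb and other nuclear receptors bind. The 250 bases before each start were taken from RefSeq's promoters on GRCm38.p6, written 5′ to 3′ on the gene's strand. Capitals mark AGGTCA and the pentamer TGACG, the core of cAMP response elements, found on either strand. The windows are chr5:51567726-51567975 (minus strand), chr8:83290098-83290347 (plus strand) and chr7:100472741-100472990 (plus strand).
Ppargc1a: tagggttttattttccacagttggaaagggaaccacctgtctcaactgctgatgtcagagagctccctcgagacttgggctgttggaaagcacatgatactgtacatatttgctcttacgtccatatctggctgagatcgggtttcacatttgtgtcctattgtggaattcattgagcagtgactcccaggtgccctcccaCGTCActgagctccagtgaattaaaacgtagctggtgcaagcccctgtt
Ucp1: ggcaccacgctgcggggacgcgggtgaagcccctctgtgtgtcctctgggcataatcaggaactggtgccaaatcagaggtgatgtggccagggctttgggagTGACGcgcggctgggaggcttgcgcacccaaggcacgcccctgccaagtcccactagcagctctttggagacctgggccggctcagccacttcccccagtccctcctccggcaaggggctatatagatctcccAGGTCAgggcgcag
Ucp3: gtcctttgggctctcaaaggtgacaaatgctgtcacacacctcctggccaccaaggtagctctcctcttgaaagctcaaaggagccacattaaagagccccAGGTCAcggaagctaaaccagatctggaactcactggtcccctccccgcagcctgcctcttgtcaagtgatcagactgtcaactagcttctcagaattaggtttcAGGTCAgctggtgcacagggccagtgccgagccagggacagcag

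The Ppargc1a window holds TGACG once, on the opposite strand, with its first printed base 49 bases before the start, and no AGGTCA. The Ucp1 window holds AGGTCA 14 bases and TGACG 147 bases before the start. The Ucp3 window holds AGGTCA at 149 and at 44 bases before the start, and no TGACG. No matches overlap. Over all 32851 promoters, 14% of the 250-base windows hold AGGTCA and 17.8% hold TGACG on either strand. Windows of 5 regulators were searched, those of Prdm16 and Dio2 besides the 3 printed, and AGGTCA stood in those of Ucp1 and Ucp3. The longer TAGGTCA and the E-box CACGTG, found in 2.23% and 6.02% of windows, stood in none of the 5. Dio2 alone holds the full palindrome TGACGTCA (1.55% of windows), which contains TGACG on both strands. These are matches of letters in a short window and do not show binding.

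Kcnk3, which encodes the background potassium channel TASK-1, was the regulator that rose. The channel marks brown and beige adipocytes in mice and limits their response to noradrenaline by changing the membrane potential. Its row (10520506) read 7.89, 7.47, 8.08 and 7.97 log2 in the KO-labelled arrays, against 7.09, 6.83, 7.12 and 7.01 in the WT arrays. Every KO-labelled array lay above every WT array, with array 2 the lowest of the KO-labelled arrays. The means were 7.85 ± 0.27 in KO-labelled and 7.01 ± 0.13 in WT arrays (n = 4 each), a log2 fold change of 0.84 (SE 0.121, 1.79-fold higher, limma adjusted p = 0.00272). It was called with any single array left out (0.76 to 0.97) and with either pair of KO-labelled arrays alone (0.67 and 1.01).

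Kcnk3 is also expressed in vascular smooth muscle, so markers of smooth muscle and pericytes are given with it. Of 7 such markers, 2 were higher and 1 was lower, beside 3.81% and 3.59% of all tested rows. The mean log2 value per array was 7.502 to 7.79 in KO-labelled and 7.41 to 7.58 in WT arrays. Of the 7 markers, 4 had log2 fold changes above 0 and 3 below, with a median of 0.13. At an unadjusted limma p under 0.05, 2 were higher and 2 lower, beside 10.2% and 11.6% of all genes. Acta2, smooth muscle actin, was higher (0.89, limma adjusted p = 0.00911), as was the pericyte gene Rgs5 (0.66, adjusted p = 0.00858), while the actin-binding gene Tagln was lower (−0.29, adjusted p = 0.0415). These 3 were named after their values were seen. The Tagln call was lost in 6 of 8 fits with an array left out, namely KO-labelled array 3 or 4 or any WT array (0.0681 to 0.102). With KO-labelled arrays 1 and 2 only, the log2 fold changes were 0.95 for Acta2 (adjusted p = 0.0509), 0.55 for Rgs5 (0.0861) and −0.34 for Tagln (0.0948), beside 0.67 for Kcnk3 (0.0294). The part of these cells in the Kcnk3 value was not tested.

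The other effector genes gave dim rows and did not pass. Dio2, the deiodinase that makes active thyroid hormone inside brown adipocytes, read 4.47, 4.60, 5.01 and 4.51 log2 in the KO-labelled arrays, against 4.44, 4.44, 4.46 and 4.41 in the WT arrays. The groups were 0.01 log2 apart, and KO-labelled array 3 stood above the rest. Dio2 was at a log2 fold change of 0.21 (SE 0.103; limma adjusted p = 0.269), or 0.09 without that array. Elovl3, an elongase of very long-chain fatty acids that cold induces in brown fat, read 3.48, 3.75, 3.79 and 3.76 log2 in the KO-labelled arrays, against 3.61, 3.49, 3.39 and 3.58 in the WT arrays. KO-labelled array 1 fell within the WT range and the other 3 lay above it, with a log2 fold change of 0.18 (SE 0.080, limma adjusted p = 0.236). Cidea, a lipid droplet protein and a classic marker of brown fat, read 4.08, 3.48, 3.79 and 3.78 log2 in the KO-labelled arrays, against 4.12, 3.68, 3.81 and 3.89 in the WT arrays. The groups overlapped, and Cidea was at −0.09 (SE 0.123, limma adjusted p = 0.732; 0.01 without KO-labelled array 2).

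**Figure D3:**
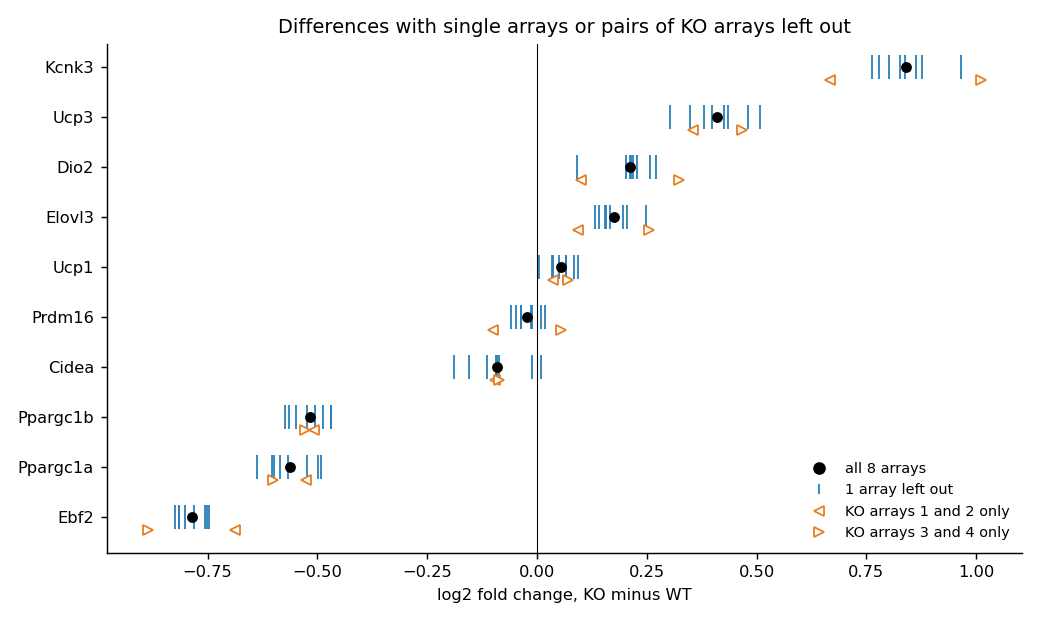
Log2 fold changes (KO-labelled minus WT) of the 10 genes with all 8 arrays (black dots), with 1 array left out (blue ticks) and with KO-labelled arrays 1 and 2 or 3 and 4 only (orange triangles). Ebf2 stays between −0.88 and −0.69 and Kcnk3 between 0.67 and 1.01, while Prdm16 and Cidea cross 0.

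For each called regulator, the 3 genes with the most similar profile were found as those with the smallest root mean square difference over the 8 arrays, each row centred on its own mean. Nearest to Ebf2 were Esr1, an estrogen receptor gene (0.081 log2), Ehhadh, a peroxisomal fatty acid oxidation gene (0.090), and C2, a complement gene (0.090). Nearest to Ppargc1b were Pcx, the gene for pyruvate carboxylase (0.049), Bag4 (0.061) and the acid phosphatase gene Acp5 (0.074). Nearest to Ppargc1a were the sialyltransferase gene St3gal6 (0.089), Tbc1d31 (0.094) and Zfp395 (0.104), and nearest to Kcnk3 were Bpifb6 (0.0999), Rassf3 (0.101) and Tspan18 (0.104). These distances describe 8 arrays that fall in 2 groups and rest largely on the group difference.

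Partners of the regulators were examined by list. Counts called in this and the other lists stand beside 3.59% of all rows called lower and 3.81% higher. Of 19 activators of the thermogenic program, 3 were lower and 0 higher, with a median log2 fold change of −0.13. At an unadjusted limma p under 0.05, 9 activators were lower and 2 higher, beside 11.6% and 10.2% of all genes. Ncoa1, a coactivator of nuclear receptors, was at −0.36 (SE 0.050), Cebpa, an adipogenic factor, at −0.37 (SE 0.058) and Ppara, the fatty acid sensor with which PGC-1 alpha works, at −0.39 (SE 0.064), with limma adjusted p of 0.00208, 0.00454 and 0.00563. Each of the 3 was called with any array left out, and Ppara missed the threshold with KO-labelled arrays 1 and 2 only (0.0503). Ncoa2 did not pass (−0.18, adjusted p = 0.0682). Pparg, the master factor of fat cells that EBF2 recruits to brown genes, was at −0.26 (adjusted p = 0.0962), named after its value was seen. Pparg passed in 2 of 17 alternative fits, without KO-labelled array 3 (0.0390) and with KO-labelled arrays 1 and 2 only (−0.42, 0.0119). With KO-labelled arrays 3 and 4 only it was at −0.10 (adjusted p = 0.399).

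Of 13 repressors analysed, 1 was higher and 1 lower, and the median log2 fold change was −0.10. Zfp423 rose; it is a zinc-finger gene that keeps white adipocytes from turning beige and holds back EBF2. It read 8.41, 8.53, 8.55 and 8.48 log2 in the KO-labelled arrays, against 8.09, 8.05, 8.13 and 8.04 in the WT arrays. The groups lay 0.28 log2 apart, with a log2 fold change of 0.42 (SE 0.053, 1.34-fold higher, limma adjusted p = 0.00125) that was called with any array left out. Ebf2 differed in the opposite direction, and a link between these changes was not tested. Rbl1, a pocket protein, was lower (−0.24, adjusted p = 0.0475), a call kept in 1 of 8 fits with an array left out, that without WT array 1 (0.0443 to 0.124 over the 8). Nr1h3 (−0.29, adjusted p = 0.0586) and Twist1 (−0.28, adjusted p = 0.0690) did not pass, though Nr1h3 did without KO-labelled array 3 or WT array 1 (0.0306 and 0.0379) and Twist1 without WT array 1 (0.0106).

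Other brown and beige genes were read against the 7.40% of all rows called. Of 18 brown adipocyte genes analysed, 1 was higher and 0 lower, with a median log2 fold change of −0.02. Cox7a1, a subunit of cytochrome oxidase found in muscle and brown fat, was at 0.33 (SE 0.071, limma adjusted p = 0.0189), and its call was lost without KO-labelled array 3 or 4 or WT array 2 or 3 (0.0516 to 0.0577) and with KO-labelled arrays 1 and 2 only (0.24, adjusted p = 0.143). Slc36a2, an amino acid transporter of brown adipocytes, was at 0.36 (adjusted p = 0.0765). It passed without KO-labelled array 2 (0.0132) and with KO-labelled arrays 3 and 4 only (0.0236). With KO-labelled arrays 1 and 2 only, Slc36a2 was at 0.25 (0.346). Pank1 was at −0.28 (0.0581, or 0.0223 without KO-labelled array 3). Pdk4, which holds back pyruvate oxidation, was at 0.93 (0.0943). It passed in 1 of 17 alternative fits, with KO-labelled arrays 1 and 2 only (1.56, 0.00245). With KO-labelled arrays 3 and 4 only, Pdk4 was at 0.30 (0.316). Of 9 beige genes analysed, Klhl13 was higher (0.60, SE 0.054, adjusted p = 0.000203) and the fatty acid transporter gene Slc27a1 lower (−0.84, SE 0.175, adjusted p = 0.0167). The Slc27a1 call was lost without KO-labelled array 4 (0.0566) or WT array 4 (0.0522), and KO-labelled arrays 3 and 4 were its lowest (9.68, 9.46, 8.73 and 9.02 log2 in KO-labelled arrays 1 to 4, against 9.98 to 10.24 in WT arrays). Hoxc9 was at −0.22 (0.0951; 0.0421 without KO-labelled array 3) and the surface marker Tmem26 at −0.13 (0.323). The median of the beige genes was −0.0021, beside −0.01 over all genes.

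Genes for heat production without Ucp1 counted 2 higher and 0 lower of 11. Gamt, the last enzyme of creatine synthesis, was at 0.54 (SE 0.130, limma adjusted p = 0.0318), and Pm20d1, a secreted enzyme that makes N-acyl amino acids, at 0.33 (SE 0.074, adjusted p = 0.0243). Each call was lost in 6 of 8 fits with an array left out (0.0682 to 0.0832 for Gamt, without KO-labelled array 3 or 4 or any WT array; 0.0547 to 0.0718 for Pm20d1, without KO-labelled array 1, 3 or 4 or WT array 1, 3 or 4). The creatine transporter gene Slc6a8 was at −0.27 (0.0692) and the creatine kinase gene Ckb at 0.29 (0.312; 0.46 and 0.0128 without WT array 1). None of these creatine genes passed with KO-labelled arrays 1 and 2 only.

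The hormonal input to the program had 1 change each way among 8 genes analysed. Thra, the thyroid hormone receptor alpha gene, was at −0.33 (SE 0.052, limma adjusted p = 0.00413), and Adcy3, an adenylyl cyclase that makes cAMP, at 0.33 (SE 0.057, adjusted p = 0.00727). Both calls held with any array left out, and the cause of either change was not tested. Thrb (−0.22, 0.226) and Creb1 (−0.12, 0.211) did not pass. The adrenergic receptor genes were not analysed here. Of 10 signals that act on thermogenic fat or come from it, Nrg4, a neuregulin that brown fat secretes, was lower. It read 8.68, 8.55, 8.49 and 8.70 log2 in the KO-labelled arrays, against 9.56, 9.56, 9.67 and 9.66 in the WT arrays. The groups stood 0.85 log2 apart, with a log2 fold change of −1.01 (SE 0.064, 2.01-fold lower, adjusted p = 4.82e-05), called with any array left out. Slit2 was at 0.23 (adjusted p = 0.0422), a call lost with every array left out in turn (0.0552 to 0.111). Angptl4 (0.85, 0.0635) and Metrnl (0.11, 0.284) did not pass, and Angptl4 did without KO-labelled array 3 (0.0411) or WT array 4 (0.0301).

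**Figure D4:**
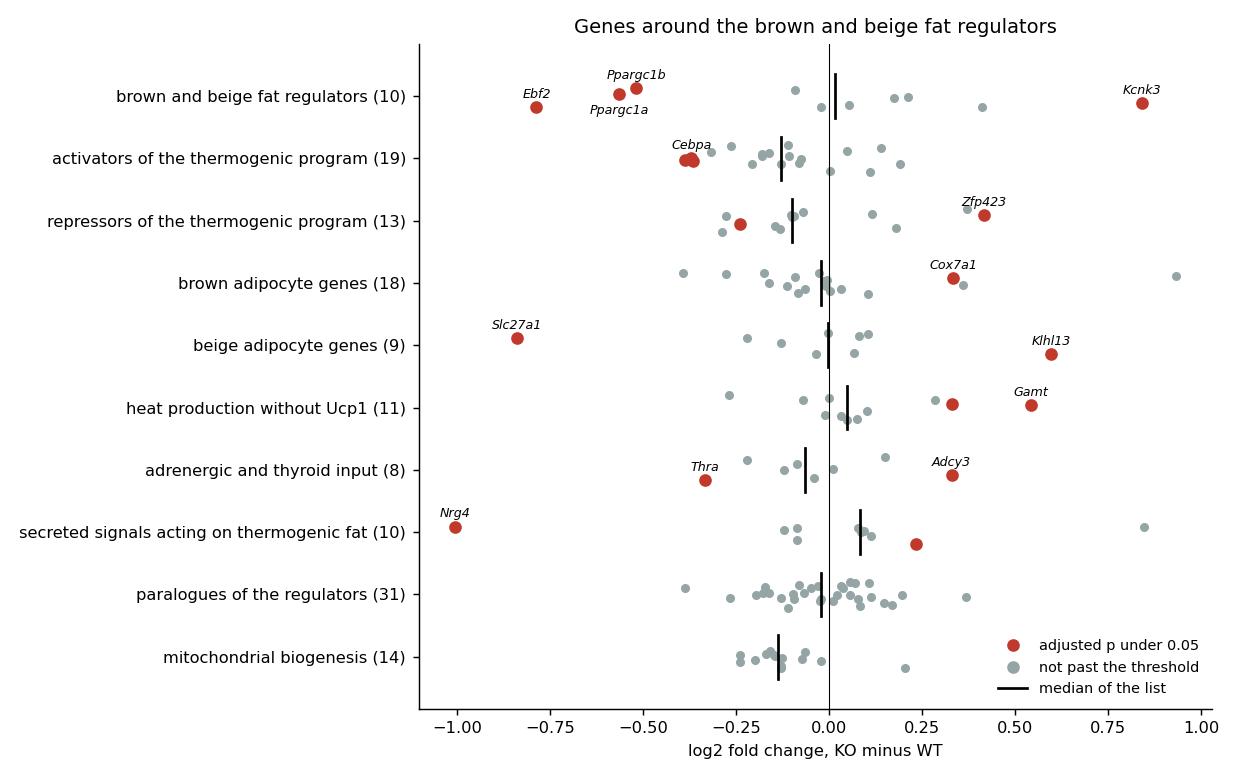
Log2 fold changes (KO-labelled minus WT) of every analysed gene of the 10 regulators and 9 related lists, with list sizes in brackets; red dots passed an adjusted p of 0.05 and black bars are list medians. The 4 called regulators lie far from the median of 0.02, and of the other lists the activators (−0.13) and mitochondrial biogenesis genes (−0.14) have the lowest medians.

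Mitochondrial biogenesis genes, which PGC-1 coactivators induce, held no call among 14 (limma; 0 higher and 0 lower), and 6 were lower at an unadjusted p under 0.05, beside 11.6% of all genes. A log2 fold change below 0 was seen in 13 of the 14, beside 51.9% of all genes. Their median was −0.14, against −0.01 over all genes, and in 4 of them the KO-labelled arrays lay wholly below the WT arrays (8.16% of all rows did). Polg2 (−0.24, adjusted p = 0.0716; 0.0379 without WT array 2), Sirt3 (−0.24, 0.0939), Polg (−0.17, 0.0981) and the citrate synthase gene Cs (−0.15, 0.134) had the smallest p. Among 31 paralogues of the regulators analysed none was called (limma; 2 at an unadjusted p under 0.05, beside 21.8% of all genes), and their median was −0.02. Slc25a14 (−0.20, adjusted p = 0.114), Elovl1 (0.17, 0.154), the potassium channel gene Kcnk6 (0.20, 0.232) and the deiodinase gene Dio1 (−0.18, 0.254) had the smallest p among them.

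Markers of the other cells of the depot were read beside the regulators. Of 6 endothelial markers, Cldn5, a tight junction gene (0.99, limma adjusted p = 0.00101), and Pecam1 (0.20, adjusted p = 0.0439) were higher and 0 were lower, and the list averaged 8.78 to 9.003 log2 per array in KO-labelled and 8.49 to 8.74 in WT arrays. The Pecam1 call was lost in 7 of 8 fits with an array left out, all but that without KO-labelled array 2 (0.0724 to 0.112). Of 6 macrophage markers, Cd14 was lower (−0.38, adjusted p = 0.0116; −0.30 and 0.112 with KO-labelled arrays 1 and 2 only) and 0 were higher. The other 5 had log2 fold changes above 0, and the list had a median of 0.16, with a list mean of 7.52 to 7.83 in KO-labelled and 7.29 to 7.77 in WT arrays. Of 6 mesothelial markers, Msln was higher (0.60, adjusted p = 0.000791) and 0 were lower. The other 5 had log2 fold changes below 0, 3 of them at an unadjusted p under 0.05, and the list had a median of −0.20, with a list mean of 8.02 to 8.15 in KO-labelled and 8.04 to 8.38 in WT arrays. None of the 7 epididymal markers was called (limma; 0 at an unadjusted p under 0.05), with a list mean of 4.04 to 4.08 in KO-labelled and 4.09 to 4.15 in WT arrays. The called markers were named after their values were seen, and the part of these cells in the regulators' values was not tested.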

How the data were processed

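RNA was labelled with biotin through whole-transcript kits and hybridised to 8 arrays, per the labels' protocols. Each deposited value is on a log2 scale. The tool affy is named in the submitters' processing notes; background correction, normalization, summarization and genome build are not given in the sources used here. The log2 scale was read from the values (2.09 to 13.35). No detection calls were used, and the number of arrays limits the precision.

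Of 23346 rows, the annotation gave 1 symbol to 20748, several to 1183 and none to 1415. Rows with 1 symbol entered a limma model (version 3.58.1, R 4.3.3; lmFit, eBayes, 2 groups, no covariate, two-sided, Benjamini-Hochberg adjustment over all 20748 rows, threshold 0.05). The brightest row stood for a gene. In simulated data over 20748 rows, 100 rows were changed by 0.5 log2 and 100 by 1 log2. Independent normal noise with each row's own SD was used. Of the changes of 0.5 log2 between KO and WT 77% were recovered, and of those of 1 log2 100%. Of the 192 calls 7.81% were false. In the real data 7.40% of rows were called, so these rates need not hold there. Of the 10 genes, 5 had a promoter that was searched; 250 bases before the start were read.

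The genes, the 17 lists and the alternatives were chosen with earlier results of these data known, so no list was tested as a set. Named from each of the 9 pathway lists were the 4 genes of lowest p, plus all called genes in lists under 12; for each called regulator, its 3 nearest profiles; and Nr1d1 and Arntl. The closing section gives the alternatives.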

Additional observations from a re-analysis of the deposited data

Results flagged for a closer look

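In 5 of 148 groups of 4 arrays examined, 1 array stood far from the other 3 by Dixon's criterion, which chance alone meets in about 1 of 20 groups. Elovl3 read 3.48 log2 in KO-labelled array 1, against 3.75 to 3.79 in the other KO-labelled arrays. Tmem26 read 5.02 in KO-labelled array 2, against 5.115 to 5.124 in the others. Acp5 read 10.18 in KO-labelled array 1, above 9.84 to 9.87. Arntl read 6.65 in KO-labelled array 2, below 6.94 to 6.95. Actn3 read 6.08 in KO-labelled array 2, above 5.70 to 5.74.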

How the results depend on the processing

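The counts of regulators called were 4 in all, 1 higher and 3 lower, and the same counts came from quantile normalization, median centring, all rows tested, trend and robust eBayes, weighted arrays, a replicate block (4 regulators and 1105 rows called), leaving out the dimmest 33.3% of rows and any row of a gene. With KO-labelled arrays 1 and 2 only, 2 were called, 1 of them lower (Ebf2, with Kcnk3 higher). The threshold of 0.10 gave 2 higher. With single arrays left out 4 to 5 were called, 1 to 2 higher and 3 lower, the further one being Ucp3. Called rows numbered 1536 in all (791 higher, 745 lower), 913 to 1418 with single arrays left out (913 without KO-labelled array 4, 972 without WT array 3, 1004 without WT array 4; 499 to 747 higher, 414 to 671 lower) and 701 (403 higher, 298 lower) with KO-labelled arrays 1 and 2 only, against 1822 (1007 higher, 815 lower) with arrays 3 and 4 only and 1879 with the dimmest rows left out. The higher and lower rows were 955 and 574 after median centring, which moved the median of all log2 fold changes to 0.015. Signs turned for Prdm16 (−0.0592 to 0.0187 with single arrays left out: 0.0187 without KO-labelled array 2, 0.0098 without WT array 4, 0.0552 with KO-labelled arrays 3 and 4 only), Cidea (−0.189 to 0.0087 with single arrays left out: 0.0087 without KO-labelled array 2), Nr1d1 (0.0265) and Ebf3 (−0.0194), the last pair with KO-labelled arrays 1 and 2 only; the cause was not tested. Same-numbered arrays showed little shared deviation (correlations −0.07 to 0.13). Low correlations cannot exclude a pairing, so whether the numbers pair the arrays is not known. Among genes beside the regulators, the replicate block ended the calls of Rbl1, Pm20d1, Slit2, Pi16, Tagln and Pecam1 and made those of Nr1h3 and Slc36a2. Quantile normalization ended the calls of Actn3 (adjusted p 0.0518), Rbl1 (0.0656) and Pecam1 (0.0738), median centring those of Rbl1 (0.0777) and Tagln (0.0574), and testing all rows that of Rbl1 (0.0527). Nr1h3 passed after quantile normalization, with trend and robust eBayes and with weighted arrays, and Pank1 with weighted arrays. With KO-labelled arrays 1 and 2 only, Ppara, Rbl1, Cox7a1, Pm20d1, Gamt, Slit2, St3gal6, Pcx, Acp5, Lep, Actn3, Pi16, Acta2, Tagln, Rgs5, Pecam1 and Cd14 missed the threshold, and with arrays 3 and 4 only Rbl1, Slit2 and Tagln did. Leaving out the dimmest rows removed Ucp1, Cidea, Elovl3 and Dio2, and brought Ncoa2, Nr1h3, Twist1, Pank1, Slc6a8 and Angptl4 past the threshold. Dim rows, with no detection calls, limit what can be said of them.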
